A study of Mus musculus with 16 samples.

Results

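The genes described here are the neighbours of Cdkn2a on mouse chromosome 4, the locus that was inactivated in the p16 knockout. Members were the genes on chromosome 4 whose midpoint lay within 30 Mb of the midpoint of Cdkn2a, at position 89284546 of the mm10 genome, and whose mean level over all libraries was at least 1 TPM. TPM is a share of the library's transcripts, corrected for gene length. Of 435 gene names in this window, 14 were omitted by name, 10 of them at 1 TPM or more. They included Cdkn2a, Cdkn2b, Cdkn2c, Cdc20 and Kif2c of the cell cycle, the endothelial receptors Tek and Tie1, the glucose transporter Slc2a1, the transcription factors Nfia and Nfib, the collagen Col27a1, the ribosomal protein Rps6, and Uqcrh of the respiratory chain. A further 211 names were under 1 TPM, and 99 of these were listed at 0 in every library. This left 210 members of 24421 gene names, 59 on the side of lower coordinates and 151 on the side of higher coordinates. The mean TPM chose the members and is given only as a description. The members just inside the level limit were Calr4 at 1.05 and Ccdc17 at 1.06 TPM, and the names just outside it were Podn at 0.953 and Pappa at 0.981 TPM. AU022252 and P3h1, at 29.944 and 29.956 Mb, were the last inside the distance limit, and Ybx1 and Ppih, at 30.001 and 30.026 Mb, were the first outside it.

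Total RNA of the dentate gyrus, the part of the hippocampus where neurons are born in adult mice, was isolated from male mice aged 1 year. It was sequenced as libraries made with an mRNA-Seq kit. The 4 groups were sedentary p16 wild-type mice (p16 WT CTL, replicates 1 to 4), sedentary p16 knockout mice (p16 KO CTL, 5 to 8), wild-type mice given a running wheel for 12 days (p16 WT RUN, 9 to 12) and knockout mice given the wheel for the same time (p16 KO RUN, 13 to 16). Each group had 4 libraries, and each library held the dentate gyri of 2 mice. The knockout lacks p16Ink4a but keeps p19Arf in every cell of the body. It was made in the FVB strain and was then bred for several generations to C57BL/6. The wild-type mice came from the same breeding. Per the paper's methods, this breeding went on until the progeny were isogenic, that is, alike in genetic background.

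Cdkn2a encodes the cell cycle inhibitors p16Ink4a, which holds the kinases CDK4 and CDK6 and so keeps the Rb protein bound to E2F factors, and p19Arf, which stabilises p53. When a mutation made in a strain is bred into another, the chromosome around it comes along until recombination trims it, so that genes near a targeted locus can carry alleles of the donor strain. Such passenger differences stay with the genotype and need no contact with the mutated gene's pathway. The stretch considered here includes Mtap, which is often lost together with CDKN2A in tumours, and ranges over brain genes such as Dab1 and Lrp8 of the Reelin pathway. The strain of origin of each gene was not measured in these data, and its part in any difference given here was not tested.

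Members ranged from 1.05 to 422.8 TPM, with a median of 19.9 TPM, and 24 had a mean of at least 100 TPM. The most abundant were Atp6v0b, a subunit of the proton pump of acidic vesicles, at 422.8 TPM, Akr1a1, an aldehyde reductase, at 414.9 TPM, and Sh3gl2, the synaptic endophilin, at 300.3 TPM. Cdkn2a itself was between 0 and 0.586 TPM over the 16 libraries. The gene-level value adds p16Ink4a and p19Arf transcripts and did not separate the genotypes. Defining markers of granule neurons were present in every library, with summed levels of 411 to 1180 TPM. Libraries p16 WT CTL 2, p16 KO CTL 6 and p16 KO CTL 7 stood apart in 8 nuclear long noncoding RNAs such as Malat1, whose sum was 977, 541 and 479 TPM there against 1830 to 2530 TPM elsewhere. Library p16 KO CTL 7 also held 216 TPM of 7 choroid plexus markers, against 19.1 to 64.6 TPM in the others. Because these libraries lie in the sedentary groups only, the counts of members called in Set B and on average are given with and without them. Setting them aside leaves p16 WT CTL 1, 3 and 4 and p16 KO CTL 5 and 8 as the sedentary libraries. The part of these smaller groups in any call lost there was not tested.

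Sedentary knockout and wild-type mice (Set B) were compared first, to see which neighbours differed with the genotype alone. In the limma test, 28 of 210 members (13.3%) had an unadjusted p under 0.05, the threshold used in the study, against 6.69% of the 17317 genes tested and 6.48% of genes with a mean of 1 TPM or more. Of these, 11 were higher in the knockout (5.24% of members, against 3.15% of all genes) and 17 were lower (8.1%, against 3.54%). After Benjamini-Hochberg adjustment over all genes, limma called 0 members and 0% of all genes, and the smallest adjusted p was 0.625. The libraries of the 2 genotypes did not overlap in 13 members (6.19%), against 2.81% of all genes, on TPM as deposited. On the scaled TPM that the fits used, a count added after seeing the data, it was 11 members (5.24%), against 2.7% of all genes. Overlap of single members is given on TPM as deposited unless stated. The median size of the log2 difference was 0.135 in members, 0.137 over all genes and 0.12 over genes with a mean of 1 TPM or more. The median signed difference was -0.02 in members and -0.01 over all genes. The count of 28 moved when single libraries were left out, to 13 without p16 KO CTL 7 (3.22% of all genes), to 14 without p16 WT CTL 1 (3.51%) and to 51 without p16 WT CTL 2 (17.5%). With the 3 libraries low in nuclear RNA set aside, 17 members were called, against 6.68% of all genes, and 12 of them were among the 28 (42.9%, where 44.2% of all genes called in Set B kept their call). With the nuclear RNA score, the mean log2 level of the 8 nuclear RNAs, as a covariate, 16 members were called, against 4.2% of all genes.

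**Figure D1:**
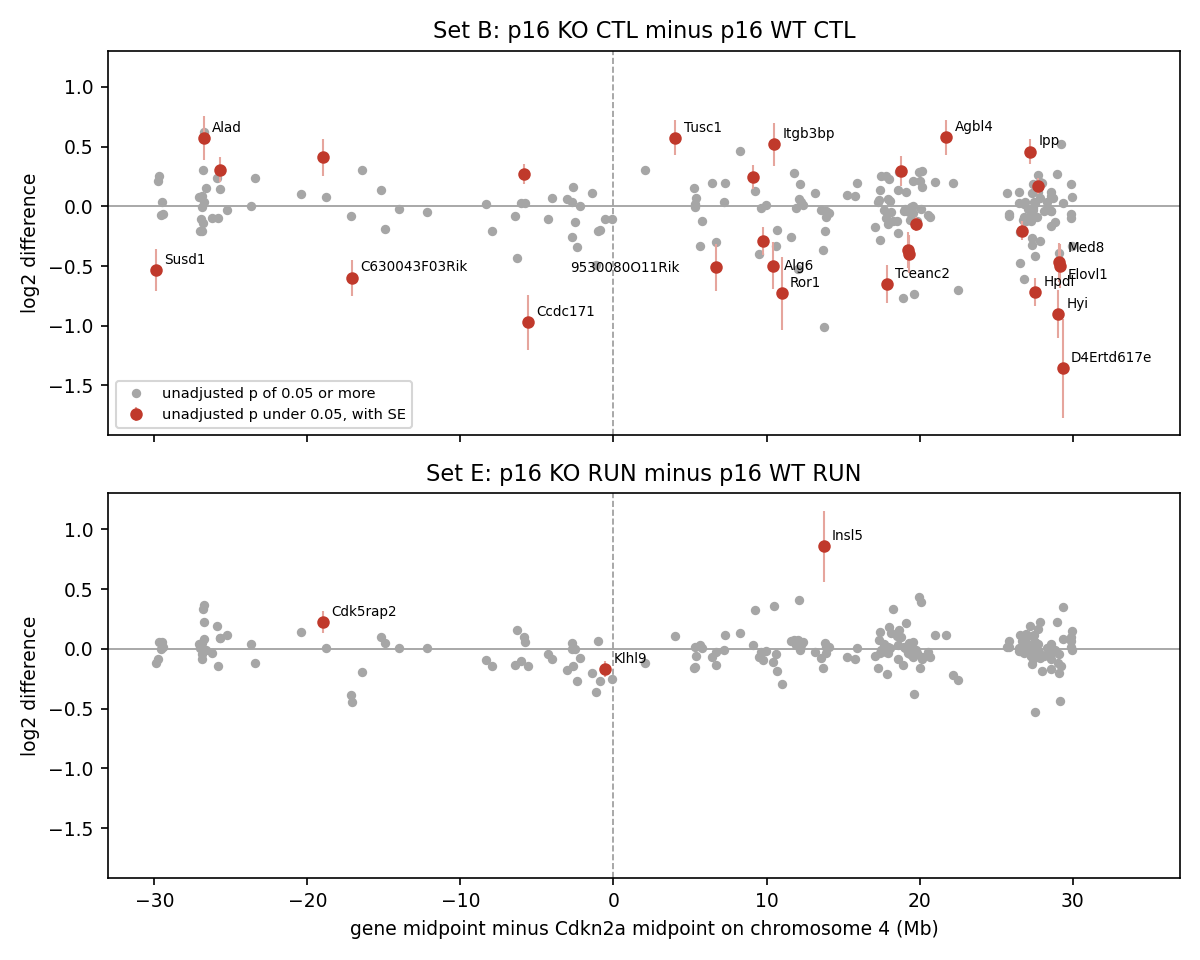
Log2 difference between genotypes of the 210 members (y axis) against the distance of the gene's midpoint from that of Cdkn2a in Mb (x axis), in sedentary mice above and in running mice below. Red points have an unadjusted p under 0.05 and carry their SE, 28 in Set B and 3 in Set E, and they lie across the window on both sides.

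Hpdl, a mitochondrial dioxygenase of the coenzyme Q pathway at chr4:116819907-116821508 on the minus strand, had the smallest Set B p of any gene tested. It was at 9.28, 7.23, 9.17 and 9.23 TPM in p16 WT CTL and at 4.80, 4.72, 5.08 and 5.505 TPM in p16 KO CTL. Every knockout library was lower than every wild-type library. The log2 difference was -0.72 (SE 0.12), with an unadjusted limma p of 0.00016, an adjusted p of 0.625 and an exact permutation p of 0.0286, the smallest that 35 arrangements allow. It lay between -0.78 and -0.67 whichever library was left out, and between -0.79 and -0.64 under the other settings.

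C630043F03Rik, a RIKEN transcript that lies head to head with the corepressor gene Tle1, was at 14.5, 12.8, 14.6 and 14.5 TPM in p16 WT CTL and at 7.24, 10.2, 7.61 and 11.2 TPM in p16 KO CTL. The groups did not overlap, and the log2 difference was -0.60 (SE 0.15, unadjusted limma p 0.00334). Tle1 itself was at 22.8 to 43.0 TPM in wild-type and 19.9 to 30.03 TPM in knockout libraries, groups that overlapped, with a log2 difference of -0.08 (SE 0.19).

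Tceanc2, a relative of the transcription elongation factor TFIIS, was at 8.52, 9.04, 7.21 and 7.95 TPM in p16 WT CTL and at 4.73, 4.17, 4.67 and 6.44 TPM in p16 KO CTL, again with no overlap. Its log2 difference was -0.65 (SE 0.16, unadjusted limma p 0.00255), and -0.47 with the 3 libraries low in nuclear RNA set aside, where it no longer passed the threshold. Hyi, a putative hydroxypyruvate isomerase, was at 11.3, 8.49, 9.00 and 10.7 TPM in wild-type and 5.78, 3.92, 3.76 and 7.18 TPM in knockout libraries, a log2 difference of -0.90 (SE 0.20, unadjusted limma p 0.00142). The entry of Hyi overlaps another on the opposite strand, and the strand setting of the abundance step is not given in the sources used here, so its value may hold reads of both. Ccdc171, a coiled-coil protein gene, was at 2.65 to 4.20 TPM in wild-type and 1.21 to 2.55 TPM in knockout libraries, a log2 difference of -0.97 (SE 0.23, unadjusted limma p 0.00235).

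Among the members that were higher in the knockout, Ipp, a kelch protein gene first described from an intracisternal A particle promoter, was at 13.8, 13.3, 17.3 and 17.7 TPM in p16 WT CTL and at 19.6, 21.1, 20.3 and 20.1 TPM in p16 KO CTL. The groups did not overlap, and the log2 difference was 0.46 (SE 0.10, unadjusted limma p 0.00155). Agbl4, a carboxypeptidase that trims glutamate chains of tubulin, was at 5.39 to 7.28 TPM in wild-type and 8.23 to 11.1 TPM in knockout libraries (log2 difference 0.58, SE 0.15, unadjusted limma p 0.00353), and its entry overlaps Bend5 on the same strand. Tusc1, a small intronless gene named as a tumour suppressor candidate, was at 6.49 to 10.8 TPM in wild-type and 10.4 to 13.8 TPM in knockout libraries, with a small overlap that was absent on scaled TPM (log2 difference 0.57, SE 0.15, unadjusted limma p 0.0036), and was not called with the 3 libraries low in nuclear RNA set aside. Alad, the enzyme of the step of heme synthesis that makes porphobilinogen, was at 14.2, 13.4, 21.1 and 19.99 TPM in p16 WT CTL and at 29.2, 27.6, 23.5 and 17.6 TPM in p16 KO CTL, groups that overlapped through p16 KO CTL 8 (log2 difference 0.57, SE 0.19, unadjusted limma p 0.0134). With the 3 libraries low in nuclear RNA set aside it was 0.36 and no longer called. Hdhd3, a hydrolase gene next to Alad, ran from 7.86 to 15.6 TPM in wild-type and from 10.3 to 22.6 TPM in knockout libraries, and its unadjusted limma p was 0.061.

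The promoters of 4 of these members are shown because they belong to genes that moved in both directions and on both sides of Cdkn2a. They were taken from the RefSeq promoter table of GRCm38.p6, the assembly called mm10, in which 177 of 210 members had at least 1 entry, and cover 250 bases before to 50 bases after the start. They are reference sequence, not reads of these mice. Capitals mark the GC box GGGCGG and the CCAAT box CCAAT on either strand.
Hpdl, promoter at chr4:116821459-116821758, minus strand: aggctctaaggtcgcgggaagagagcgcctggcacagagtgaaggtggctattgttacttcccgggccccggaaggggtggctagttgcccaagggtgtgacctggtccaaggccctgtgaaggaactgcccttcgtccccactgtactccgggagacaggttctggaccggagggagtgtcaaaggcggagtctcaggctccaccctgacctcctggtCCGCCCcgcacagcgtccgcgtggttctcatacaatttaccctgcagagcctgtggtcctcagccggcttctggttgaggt
Tceanc2, promoter at chr4:107178317-107178616, minus strand: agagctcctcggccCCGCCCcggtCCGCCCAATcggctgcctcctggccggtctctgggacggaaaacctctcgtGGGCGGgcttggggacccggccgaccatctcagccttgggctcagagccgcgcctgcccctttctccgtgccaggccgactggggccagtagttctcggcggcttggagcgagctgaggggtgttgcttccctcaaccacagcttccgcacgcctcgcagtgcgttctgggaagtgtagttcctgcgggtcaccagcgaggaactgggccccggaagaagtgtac
Cdk5rap2, promoter at chr4:70410386-70410685, minus strand: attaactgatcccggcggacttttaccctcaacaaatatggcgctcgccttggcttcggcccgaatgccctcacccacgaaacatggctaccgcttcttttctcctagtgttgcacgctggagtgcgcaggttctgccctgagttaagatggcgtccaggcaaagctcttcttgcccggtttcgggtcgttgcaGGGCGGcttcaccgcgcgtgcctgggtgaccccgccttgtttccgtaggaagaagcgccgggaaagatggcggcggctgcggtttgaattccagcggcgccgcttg
Alad, promoter at chr4:62520014-62520313, minus strand: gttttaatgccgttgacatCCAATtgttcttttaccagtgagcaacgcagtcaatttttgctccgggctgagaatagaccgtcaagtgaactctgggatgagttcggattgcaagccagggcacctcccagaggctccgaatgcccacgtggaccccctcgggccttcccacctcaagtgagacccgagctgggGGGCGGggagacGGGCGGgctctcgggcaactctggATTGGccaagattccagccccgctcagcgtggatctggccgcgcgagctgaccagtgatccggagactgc
The Hpdl window held 1 GC box, the Tceanc2 window 3 GC boxes and 1 CCAAT box that shares 2 bases with a GC box, the Cdk5rap2 window 1 GC box, and the Alad window 2 GC boxes and 2 CCAAT boxes. The RefSeq start of Cdk5rap2 lay 68 bases from the start of the deposited gene, and the other 3 starts were the same. Of all 32851 promoters in the table, 35.7% held a GC box and 37.4% a CCAAT box. Of 233 promoters of members, 65.7% held a GC box and 43.8% a CCAAT box. Members were chosen at a mean of 1 TPM or more, whereas the promoters in the table were not chosen by level. The shares among promoters of genes at that level were not computed, so nothing about the neighbourhood is read from these motif shares or those below. The TATA box TATAAA was in 13.6% of all promoters, in 6.01% of those of members and in none of the 4 windows. The E2F forms TTTGGCGC, TTTCCCGC, TTTGCCGC and TTTCGCGC, searched on both strands because p16 acts on E2F factors, were in 2.26% of all promoters, in 1.72% of those of members and in none of these 4 windows.

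Running knockout and wild-type mice (Set E) share no library with Set B, so they give a separate look at the same genotype difference. Only 3 members (1.43%) had an unadjusted limma p under 0.05 in Set E, against 3.87% of all genes and 3.59% of genes with a mean of 1 TPM or more. After adjustment limma called 0 members and 0.00577% of all genes. The libraries of the genotypes overlapped in every member, 0 of 210 being separate, against 2.49% of all genes, and 0 members were separate with the same sign in both sets, against 0.0231%. The 3 members were Insl5, Klhl9 and Cdk5rap2. Insl5, an insulin-like peptide gene, was listed at 0.596 to 1.15 TPM in p16 WT RUN and 1.02 to 2.32 TPM in p16 KO RUN, near the lower limit of level, and its log2 difference of 0.86 (SE 0.30) had the opposite sign in Set B, where it was -1.01 (SE 0.86). Its call was lost without p16 KO RUN 15, and with all 16 libraries in one fit, at 0.49.

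Cdk5rap2, a centrosomal protein that anchors microtubule nucleation complexes, was the only member with an unadjusted p under 0.05 and the same sign in both sets, 1 of 210 (0.476%), against 0.254% of all genes. It was at 9.45, 8.56, 12.9 and 12.1 TPM in p16 WT CTL, 16.3, 14.8, 13.1 and 10.7 TPM in p16 KO CTL, 10.6, 11.0, 9.78 and 11.8 TPM in p16 WT RUN, and 12.4, 11.0, 12.8 and 14.1 TPM in p16 KO RUN. Levels were higher in the knockout in each pair of groups, and the groups overlapped in each. The log2 difference was 0.41 (SE 0.16, unadjusted limma p 0.0284) in Set B and 0.22 (SE 0.10, p 0.043) in Set E. Either call was lost in most fits that left out a library, with log2 differences of 0.33 to 0.53 in Set B and 0.17 to 0.28 in Set E.

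Although few members were called in Set E, the members called in Set B mostly kept their direction there. Of the 28, 25 (89.3%) had the same sign in Set E, against 59.7% of the 1158 genes called in Set B over all genes and 62.2% of those with a mean of 1 TPM or more. Signed by Set B, the median Set E log2 difference of these 28 was 0.12, beside a median size of 0.50 in Set B, and over all genes called in Set B it was 0.03 beside 0.45. Among all 210 members, 124 (59%) had the same sign in both sets, against 52.7% of all genes. The 3 exceptions were Cc2d1b, Faah and D4Ertd617e, each lower in the knockout in Set B and at a log2 difference of 0.04, 0.07 and 0.35 in Set E. The share of 89.3% lay between 67.9%, without p16 WT RUN 11, and 95.2%, without p16 WT CTL 3, and was 76.5% of 17 members with the 3 libraries low in nuclear RNA set aside. No share over all genes is given for these fits, so whether the gap to all genes held in them is not known. Neighbouring members are not independent of each other, and the shares were not tested against each other.

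**Figure D2:**
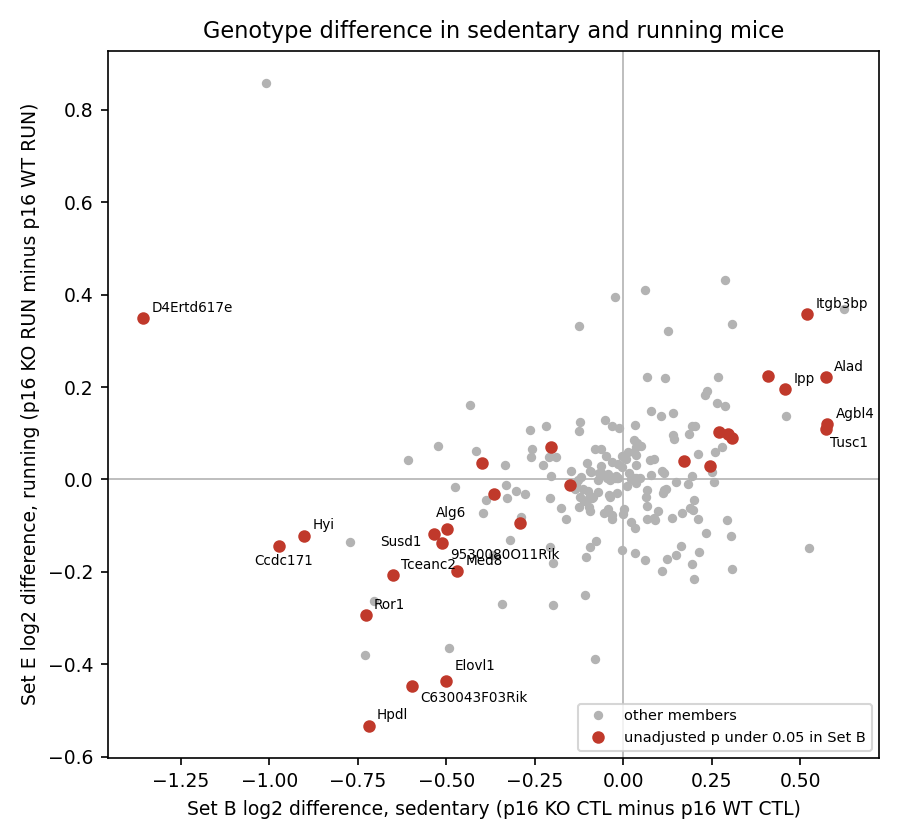
Log2 difference between genotypes in running mice (y axis, Set E) against that in sedentary mice (x axis, Set B) for the 210 members. Red points have an unadjusted p under 0.05 in Set B, and 25 of these 28 lie in the quadrants of equal sign.

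Library p16 WT RUN 12 decided how many members were called in running mice. Without it 21 members had an unadjusted limma p under 0.05 in Set E, against 6.05% of all genes. Of these, 11 had been called with the same sign in Set B, a count with no share over all genes beside it for this fit. These 11 were Alad, Atp6v1g1, C630043F03Rik, Ccdc171, Cdk5rap2, Elovl1, Hpdl, Itgb3bp, Med8, Scp2 and Tceanc2. Of the 21, 19 had the same sign as in Set B. The share over all genes is not given for this count either, so nothing is read from the 11 or the 19. The smallest adjusted p was still 0.553, that of Klhl9. The count of Set E calls was 1 without p16 KO RUN 16 (3.45% of all genes), 5 without p16 WT RUN 11 (3.42%) and 5 without p16 KO RUN 13 (3.99%).

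Hpdl was at 14.9 and 12.9 TPM in p16 WT RUN 9 and 11, at 8.45 TPM in p16 WT RUN 10 and at 6.56 TPM in p16 WT RUN 12. In p16 KO RUN it was at 6.75, 8.60, 7.37 and 5.48 TPM. Libraries 9 and 11 thus stood above the knockout libraries, and 10 and 12 lay within their range. C630043F03Rik was at 16.8 and 18.4 TPM in p16 WT RUN 9 and 11, at 11.0 and 9.07 TPM in 10 and 12, and at 8.00 to 11.9 TPM in p16 KO RUN. Elovl1, an elongase of very long fatty acids whose entry overlaps Cdc20 on the opposite strand, was at 15.4 and 18.9 TPM in p16 WT RUN 9 and 11, at 11.2 and 8.16 TPM in 10 and 12, and at 7.04 to 10.7 TPM in p16 KO RUN. Alad, higher in the knockout in Set B, and Hdhd3, not called in Set B or Set E, showed the reverse order. Alad was at 15.6, 17.6 and 15.9 TPM in p16 WT RUN 9 to 11 and at 27.5 TPM in p16 WT RUN 12, above all 4 p16 KO RUN libraries at 18.8 to 24.7 TPM. Hdhd3 was at 8.07, 15.4, 10.4 and 23.9 TPM in p16 WT RUN 9, 10, 11 and 12, and at 14.6 to 19.9 TPM in p16 KO RUN. Its average difference passed the unadjusted threshold but lost it in 10 of the 16 fits that left out a library, with TPM as deposited, with no variance trend, with the covariate and with the 3 libraries set aside. Over all the settings and left-out libraries it ran from 0.30 to 0.64.

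The same order ran through the members called in Set B, whose choice used no running library. In 22 of these 28 members (78.6%), p16 WT RUN 12 was the wild-type running library farthest in the direction of the knockout, and this was so in 45.1% of all 1158 genes called in Set B. Libraries p16 WT RUN 9 and 11 were the farthest in the opposite direction in 10 and 18 of the 28, and p16 WT RUN 10 and 12 in 0, whereas over all genes called in Set B the 4 libraries were so in 33.5%, 40.1%, 14.9% and 11.6%. In p16 KO RUN, library 16 was the farthest in the knockout direction in 14 of 28 members, against 30.4% of all genes called. Members on one chromosome segment share whatever the segment carries and are not independent of each other. Whether the animals of p16 WT RUN 12 carried other alleles around Cdkn2a than those of 9 and 11 was not tested. Per the study's methods the mice were genotyped by PCR on DNA of the tail. The Cdkn2a levels in these files gave no further check of any library's genotype label, this one's included, and Set E rests on that label. The nuclear RNA score was 7.08 in p16 WT RUN 12, the highest of the running libraries, and 6.65, 6.985 and 6.75 in p16 WT RUN 9, 10 and 11. Granule neuron markers summed to 951 and 1010 TPM in 9 and 11, and to 705 and 814 TPM in 10 and 12. Oligodendrocyte markers summed to 1300 and 1230 TPM in 9 and 11, and to 1760 and 1440 TPM in 10 and 12. Interneuron markers split the libraries likewise, and CA pyramidal neuron, astrocyte, microglia, endothelial, choroid plexus and blood markers did not. The part of these levels in the order was not tested.

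**Figure D3:**
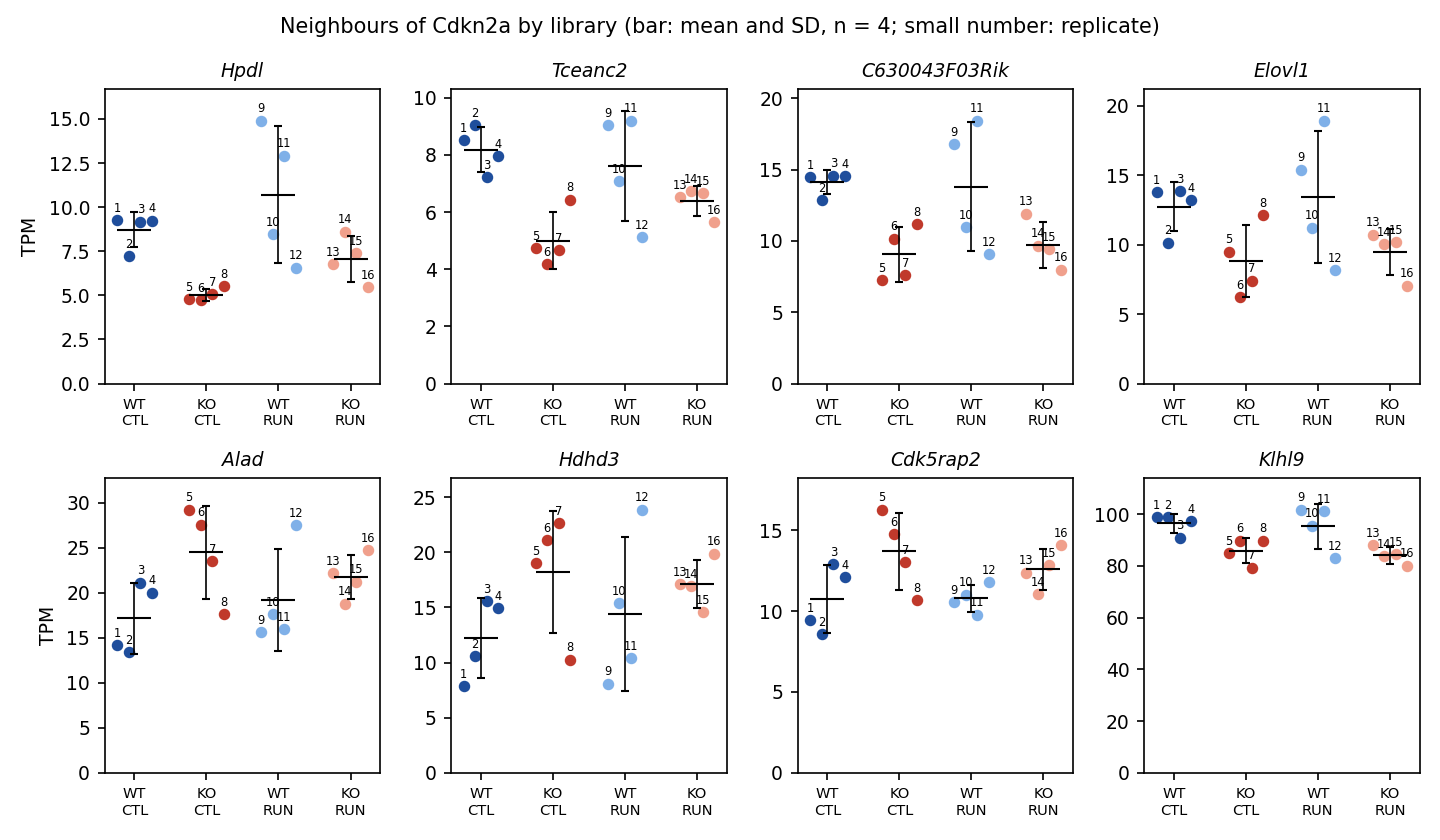
TPM (y axis, from 0) of 8 members in each library of the 4 groups (x axis), with the replicate number beside each point and a bar for the mean and SD. In the wild-type running group, libraries 9 and 11 lie on the side away from the knockout and library 12 on the knockout side in Hpdl, Tceanc2, C630043F03Rik, Elovl1, Alad, Hdhd3 and Klhl9.

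The average of the 2 genotype differences, fitted over all 16 libraries, had an unadjusted limma p under 0.05 in 32 members (15.2%), against 7.12% of all genes and 7.22% of genes with a mean of 1 TPM or more. It was higher in the knockout in 14 members (6.67%, against 3.87% of all genes) and lower in 18 (8.57%, against 3.25%). After adjustment limma called 0 members and 0% of all genes, with a smallest adjusted p of 0.604 for Hpdl. Of the 32, 22 (68.8%) stayed under 0.05 whichever library was left out, as did 40.7% of the 1233 genes called over all, and 23 (71.9%, against 52.7%) did with the nuclear RNA score in the model. With the 3 libraries low in nuclear RNA set aside 12 (37.5%, against 51.2%) stayed, and 17 members were called, against 6.48% of all genes. The count was 51 without p16 WT CTL 2, against 15.7% of all genes, and 23 without p16 KO CTL 7, against 4.16%. Under every setting tried on the 210 members and every left-out library, 8 members stayed under 0.05: Cdk5rap2, C630043F03Rik, Snapc3, Klhl9, Tceanc2, Agbl4, Ipp and Hpdl. These are 25% of the 32, where 21.3% of all genes called and 25.2% of those with a mean of 1 TPM or more stayed under 0.05, and these shares were not tested against each other.

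Hpdl had an average log2 difference of -0.63 (SE 0.15, unadjusted limma p 0.000593), with a two-sided exact permutation p of 0.00286 over 4900 rearrangements within the sedentary and within the running libraries, of which the smallest possible is 0.000408. Ipp was at 0.33 (SE 0.09, unadjusted limma p 0.00169), C630043F03Rik at -0.52 (SE 0.14, p 0.00211) and Tceanc2 at -0.43 (SE 0.12, p 0.00298). Snapc3, a subunit of the complex that starts small nuclear RNA genes, was at 33.5 to 41.8 TPM in p16 WT CTL, 38.5 to 46.8 TPM in p16 KO CTL, 36.2 to 43.7 TPM in p16 WT RUN and 41.5 to 45.04 TPM in p16 KO RUN, a small shift to higher levels with overlap in both pairs (average log2 difference 0.19, SE 0.06). Itgb3bp, a centromere protein, averaged 0.44 (SE 0.14), and Med8, a subunit of the Mediator complex, -0.33 (SE 0.11). The nardilysin gene Nrd1 was at -0.08 (SE 0.03), the phosphoglucomutase gene Pgm2 at -0.19 (SE 0.07) and the V-ATPase subunit Atp6v1g1 at 0.20 (SE 0.07). With the 3 libraries low in nuclear RNA set aside these 5 members were no longer called by limma, at average log2 differences of 0.33 for Itgb3bp, -0.21 for Med8, -0.06 for Nrd1, -0.16 for Pgm2 and 0.14 for Atp6v1g1. Nrd1 also lost its call with the nuclear RNA score as covariate and in 6 of the 16 fits that left out a library. Rab3b, a small GTPase of synaptic vesicles, spread widely within groups, from 12.6 to 38.0 TPM in p16 WT CTL and from 9.69 to 27.4 TPM in p16 KO CTL, where p16 KO CTL 8 alone was above 12 TPM. Its average call was lost with the 3 libraries set aside, at -0.27, with the covariate and in 12 of the 16 fits that left out a library.

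**Figure D4:**
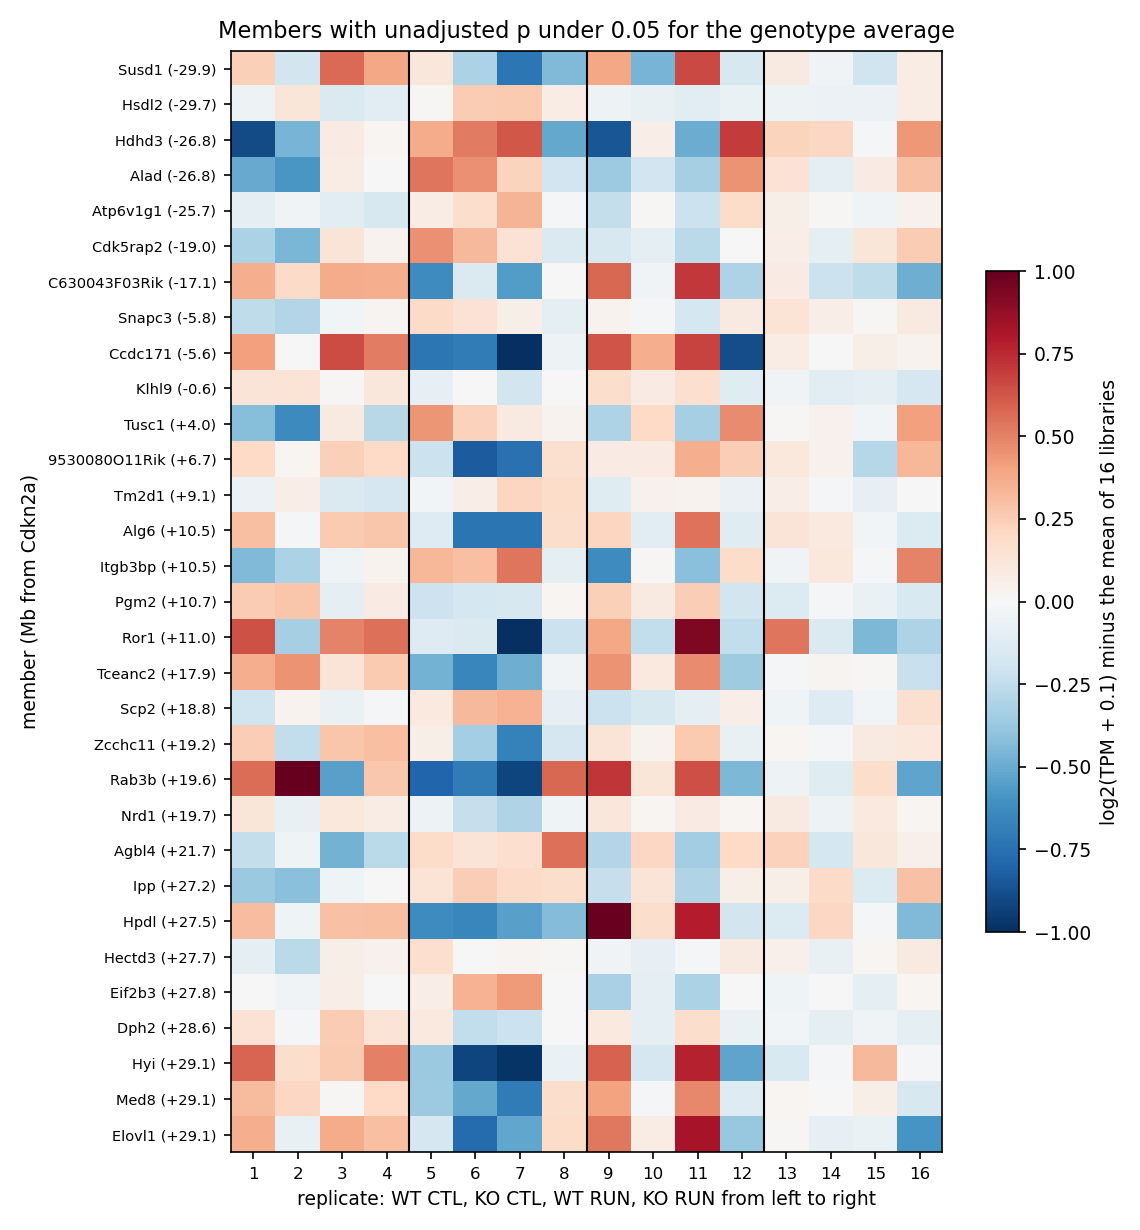
Map of 31 of the 32 members with an unadjusted p under 0.05 for the average genotype difference, ordered along the chromosome from lower to higher coordinates (rows, with the distance from Cdkn2a in Mb), in the 16 libraries (columns, 4 per group). Colour is log2(TPM + 0.1) minus the member's mean over the libraries, with values beyond 1 drawn at the end of the scale; the colours of p16 WT RUN 12 resemble those of the p16 KO CTL columns and those of p16 WT RUN 9 and 11 are opposite.

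As these 32 members were chosen on all libraries, the position of single libraries among them is a description. For each of them the midpoint between the wild-type and knockout means was taken. Libraries p16 WT CTL 1 and 4 and p16 WT RUN 9 and 11 lay on the knockout side of it in 0 of 32, and p16 KO CTL 7 in 32 of 32. In p16 WT RUN 12 it was 26 of 32 (81.2%), in p16 WT RUN 10 15 of 32, in p16 WT CTL 2 and 3 11 and 10 of 32, and in p16 KO CTL 5, 6 and 8 26, 31 and 17 of 32. In p16 KO RUN 13, 14, 15 and 16 it was 19, 19, 17 and 26 of 32, so that p16 WT RUN 12 lay on the knockout side in as many members as p16 KO RUN 16 and in more than the other 3. Over all 1233 genes with an unadjusted p under 0.05 for the average, p16 WT CTL 1, 2, 3 and 4 lay on the knockout side in 12.1%, 56%, 17.8% and 13.9%, and p16 WT RUN 9, 10, 11 and 12 in 7.46%, 31.8%, 9.41% and 44.9%. For p16 KO CTL 5, 6, 7 and 8 it was 67.3%, 90.8%, 93.4% and 66.3%, and for p16 KO RUN 13, 14, 15 and 16 51.2%, 59.4%, 65.2% and 66%. Of the 28 members called in Set B, p16 KO RUN 13, 14, 15 and 16 lay on the knockout side of the midpoint between the sedentary groups in 12, 9, 10 and 16 (31.7%, 38.2%, 36.1% and 40% of all genes called in Set B), and p16 WT RUN 9, 10, 11 and 12 in 1, 11, 0 and 22 (18.4%, 42.7%, 18% and 52.5%).

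The calls were spread over the window. In Set B, 1 of 17 members within 5 Mb was called, 5 of 26 between 5 and 10 Mb, 10 of 70 between 10 and 20 Mb and 12 of 97 between 20 and 30 Mb, against 47 of 696 genes on the rest of chromosome 4 with a mean of 1 TPM or more (6.75%). For the average difference the counts were 2, 5, 11 and 14 in the same distances and 57 on the rest of the chromosome (8.19%). Both sides contributed, with 10 of 59 members at lower coordinates and 22 of 151 at higher coordinates. The median size of the average log2 difference was 0.07 within 5 Mb, 0.12 between 5 and 10 Mb, 0.08 between 10 and 20 Mb and 0.07 between 20 and 30 Mb. These are counts without a test, and neighbouring genes are not independent.

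Of the 10 members closest to Cdkn2a, 9 had an unadjusted limma p above 0.05 in Set B, in Set E and for the average. Klhl9, an adaptor of the cullin CUL3 ubiquitin ligase that acts in mitosis, lies 0.564 Mb away at chr4:88718292-88722508 and was the exception. It was at 98.8, 98.9, 90.9 and 97.3 TPM in p16 WT CTL and at 85.0, 89.8, 79.3 and 89.8 TPM in p16 KO CTL. These did not overlap as deposited but did on scaled TPM, at 88.4 to 104 in wild-type and 83.8 to 95.2 in knockout libraries. In running mice it was at 102, 95.6, 101 and 83.0 TPM in p16 WT RUN and at 88.0, 83.8, 84.5 and 80.1 TPM in p16 KO RUN, with overlap through p16 WT RUN 12 alone. The log2 difference was -0.11 (SE 0.07, unadjusted limma p 0.154) in Set B, -0.17 (SE 0.06, unadjusted limma p 0.0282) in Set E and -0.14 (SE 0.05, unadjusted limma p 0.0109) on average. In Set E it was -0.23 (p 0.00121) without p16 WT RUN 12, and lost the threshold without any of p16 WT RUN 9, 10 or 11 or p16 KO RUN 15 or 16, at -0.14 for the smallest of the fits.

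Mtap, the methionine salvage enzyme whose midpoint is the nearest, at 0.125 Mb, was at 7.89 to 10.6 TPM in p16 WT CTL, 7.51 to 10.2 TPM in p16 KO CTL, 8.41 to 12.4 TPM in p16 WT RUN and 7.99 to 8.81 TPM in p16 KO RUN. All pairs of groups overlapped, and the average log2 difference was -0.18 (SE 0.10). In running mice it was -0.32 (unadjusted limma p 0.0472) without p16 WT RUN 12. Hacd4, a dehydratase of fatty acid elongation, had means of 2.53 and 2.09 TPM in sedentary wild-type and knockout mice (SD 0.36 and 0.082, n = 4 each), a gap wider than either SD, and averaged -0.24 (SE 0.13), and Acer2, a ceramidase of the Golgi, -0.31 (SE 0.17), both with an unadjusted limma p above 0.05. Focad, which encodes focadhesin, averaged -0.07 (SE 0.10), Dennd4c, an activator of Rab GTPases, -0.06 (SE 0.07), and Slc24a2, a sodium, potassium and calcium exchanger of neurons, -0.04 (SE 0.09). Mllt3, a reader of acetylated histones, averaged -0.04 (SE 0.08) and Elavl2, a neuronal RNA-binding protein, 0.09 (SE 0.16). Mir491 lies inside Focad on the same strand, so its 0.187 to 7.75 TPM may hold reads of Focad.

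Further out, several well-known genes did not separate the genotypes. Jun, the immediate early transcription factor, was at 212 to 332 TPM in p16 WT CTL and 171 to 297 TPM in p16 KO CTL, with an average log2 difference of -0.06 (SE 0.13). Jak1, the kinase of cytokine receptors, kept to 122 to 142.5 TPM over all 16 libraries (average 0.01, SE 0.03). Dab1, the adaptor of Reelin signalling, averaged 0.01 (SE 0.06), Ptprd, a receptor phosphatase of synapses, -0.02 (SE 0.07), and Elavl4, a neuronal RNA-binding protein, 0.16 (SE 0.13). For Jak1, Dab1, Ptprd, Jun, Mllt3 and Slc24a2 the sign of the average changed with the scaling or with a left-out library, so that no direction is given for them.

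Grouped by role, 120 of the 210 members fell into 11 lists, of which 10 are described for Set B. Their counts of 0 to 2 stand beside 3.15% of all genes higher and 3.54% lower, and nothing is read from them. Of 15 members for lipid metabolism and lipoprotein receptors, 1 was higher (Scp2, the sterol carrier, log2 difference 0.30, SE 0.12) and 2 were lower (Elovl1 and Faah, the hydrolase of anandamide, at -0.50, SE 0.19, and -0.21, SE 0.08), with a median of 0.03 beside -0.01 over all genes. With the nuclear RNA score as covariate these 3 were no longer called, the smallest values over the settings being 0.14 for Scp2, -0.29 for Elovl1 and -0.13 for Faah. Of 21 members for neurons and synapses, 1 was higher (Agbl4) and 1 lower (Ror1, a Wnt receptor, -0.73, SE 0.31), with a median of 0.07. Of 13 members for RNA processing and translation, 1 was higher (Snapc3) and 1 lower (Zcchc11, a uridylyl transferase, -0.36, SE 0.15). Of 16 members for ubiquitin, redox and protein handling, 1 was higher (Hectd3) and 1 lower (Nrd1). Among the 5 genes for heme, copper and cobalamin 1 was higher (Alad), among 10 for cilium, centrosome and microtubules 1 was higher (Cdk5rap2), and of 17 transcription and chromatin factors 1 was lower (Med8). With the covariate Ror1, Zcchc11, Nrd1, Cdk5rap2 and Med8 were not called either, and with the 3 libraries low in nuclear RNA set aside Snapc3, Hectd3 and Alad were not. In the lists for mitochondria and nucleotides, extracellular matrix and DNA replication, 0 members of 10, 3 and 4 were called by limma in Set B at the unadjusted threshold. The summed level of 6 astrocyte markers had a median of 2070 TPM in p16 WT CTL (2010 to 2570) and 2620 TPM in p16 KO CTL (1990 to 3020), where p16 KO CTL 6 and 7, low in nuclear RNA, were at 3020 and 2950 TPM and p16 KO CTL 5 and 8 at 2280 and 1990 TPM. The 6 oligodendrocyte markers summed to 980 to 2040 TPM and 1460 to 2430 TPM. The 6 microglia markers summed to 401 to 471 TPM (median 406) and 395 to 568 TPM (median 472), with p16 KO CTL 6 and 7 at 568 and 531 TPM, and the 7 markers of GABAergic interneurons to 975 to 1550 TPM and 1140 to 1440 TPM. The 5 endothelial markers summed to 82.0 to 116 TPM (median 108) and 58.8 to 115 TPM (median 85.1), with p16 KO CTL 6 and 7 the lowest at 58.8 and 60.7 TPM. The groups overlapped in all 5 sums. In Set B limma called 2 microglia, 2 interneuron, 1 astrocyte, 1 oligodendrocyte and 1 CA pyramidal neuron markers higher at the unadjusted threshold, and 0 markers of granule neurons, endothelium, choroid plexus or blood. In Set E it called 1 microglia, 1 endothelial and 1 choroid plexus marker higher and 1 CA pyramidal neuron and 1 astrocyte marker lower. For the average it called 2 microglia, 1 interneuron and 1 choroid plexus markers higher. The interaction was called more negative in running mice for 2 CA pyramidal neuron, 1 interneuron and 1 oligodendrocyte markers. In bulk tissue fewer cells of a type and less RNA per cell cannot be told apart, and the part of these levels in the members' differences was not tested.

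Running was then compared within each genotype, to set the neighbours' response to exercise beside the genotype differences. In the knockout (Set A), 33 members (15.7%) had an unadjusted limma p under 0.05, against 18.5% of all genes. Of these, 21 were higher after running (10%, against 10.7% of all genes) and 12 lower (5.71%, against 7.74%). After adjustment limma called 0 members and 0.0173% of all genes. In the wild type (Set C), 3 members (1.43%) were called, against 4.81% of all genes, and after adjustment 0 members and 0% of all genes. The shares in members and in all genes were not tested against each other. Sets A and B share the p16 KO CTL libraries, so their values for a member are not independent. The Set A count was 58 without p16 KO CTL 5 (27.4% of all genes), of which 3 passed after adjustment, 13 with the 3 libraries low in nuclear RNA set aside (8.49%) and 18 with the nuclear RNA score as covariate (9.42%). The Set C count was 9 with the 3 libraries set aside (5.88%), 6 with the covariate (5.2%) and 5 with all 16 libraries in one fit (5.64%). Markers of other cell types moved with Set A. At the unadjusted threshold limma called 4 of 6 oligodendrocyte, 2 of 6 astrocyte, 2 of 6 microglia, 2 of 7 CA pyramidal neuron and 1 of 7 interneuron markers lower after running. It called 1 of 5 granule neuron, 1 of 7 interneuron and 1 of 5 endothelial markers and 2 of the 8 nuclear RNAs higher. The oligodendrocyte sum had a median of 1890 TPM in p16 KO CTL (1460 to 2430) and 1270 TPM in p16 KO RUN (1130 to 1480), and the part of these levels in the members' differences was not tested. In Set C 1 CA pyramidal neuron and 1 interneuron marker were called higher and 0 of any list lower.

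Lrp8, the receptor of Reelin and apolipoprotein E that is also called ApoER2, had the smallest Set A p among the members. It was at 49.0, 38.9, 34.4 and 43.8 TPM in p16 KO CTL and at 61.0, 60.3, 58.8 and 60.0 TPM in p16 KO RUN, with every running library above every sedentary one. The log2 difference was 0.48 (SE 0.08, unadjusted limma p 0.000182, adjusted p 0.0861), and 0.35 to 0.54 over the other settings. In the wild type it was at 39.3 to 54.3 TPM in sedentary and 48.2 to 66.0 TPM in running libraries, a log2 difference of 0.25 (SE 0.12). Nasp, a histone chaperone, was at 17.2 to 23.9 TPM in p16 KO CTL and 26.6 to 29.0 TPM in p16 KO RUN (log2 difference 0.42, SE 0.08, unadjusted limma p 0.00052), and at 18.6 to 28.9 TPM in p16 WT CTL and 23.4 to 29.0 TPM in p16 WT RUN (0.05, SE 0.12). Mknk1, a kinase of the translation factor eIF4E, was at 27.6 to 33.1 TPM and 34.3 to 40.7 TPM in the knockout (0.31, SE 0.07, unadjusted limma p 0.00209). Ndc1, a nucleoporin of the nuclear membrane, rose in the same sense at the unadjusted threshold (0.40, SE 0.10), and Urod, an enzyme of heme synthesis, fell by 0.24 on the log2 scale (SE 0.05). Plin2, the coat protein of lipid droplets, fell by 0.43 (SE 0.13) and no longer passed the threshold with the 3 libraries low in nuclear RNA set aside, at -0.25. Under every setting and left-out library, 8 of the 33 (24.2%, against 21.2% of all genes called in Set A) stayed under 0.05: Ppap2b, Ssbp3, Ndc1, Lrp8, Cc2d1b, Mknk1, Nasp and Urod.

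In the wild type the called members were Cdc26, Zfp37 and Mir491. The Mir491 call (log2 difference 1.17, SE 0.52) was lost in 7 of 12 other settings and in 6 of the 8 fits that left out a library. Cdc26, a subunit of the anaphase promoting complex, was at 43.5, 42.3, 51.0 and 48.3 TPM in p16 WT CTL and at 43.2, 36.97, 41.9 and 36.5 TPM in p16 WT RUN (log2 difference -0.23, SE 0.07, unadjusted limma p 0.009), with a small overlap that was absent on scaled TPM. Zfp37, a zinc finger protein, was lower in running libraries of both genotypes, at -0.18 (SE 0.07) in Set C and -0.22 (SE 0.08) in Set A, though either call was lost without some of the libraries. The Set C count was 9 without p16 WT CTL 2 (5.88% of all genes), 8 without p16 WT RUN 9 (5%) or 11 (5.67%) and 5 without p16 WT CTL 3 (4.87%).

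**Figure D5:**
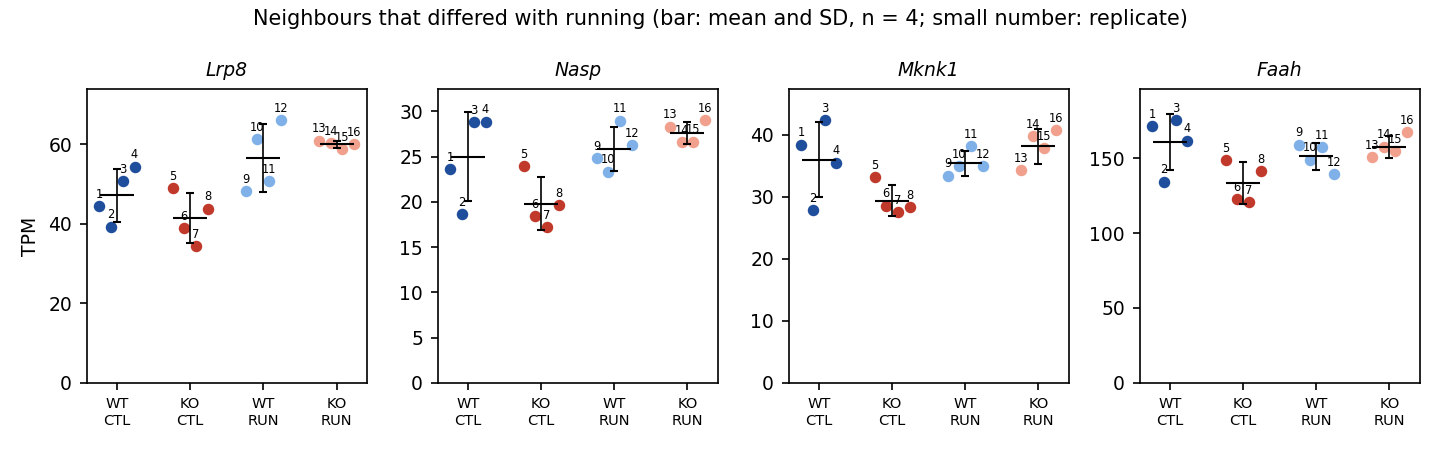
TPM (y axis, from 0) of Lrp8, Nasp, Mknk1 and Faah in each library of the 4 groups (x axis), with replicate numbers and a bar for the mean and SD. In all 4 genes every p16 KO RUN library lies above every p16 KO CTL library, whereas the wild-type groups overlap.

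The genotype difference was compared between running and sedentary mice by the interaction over all 16 libraries. It had an unadjusted limma p under 0.05 in 7 members (3.33%), against 5.48% of all genes, and after adjustment in 0 members and 0% of all genes, with a smallest adjusted p of 0.797. In all 7 the difference was more positive in running mice. Faah was at 134 to 175 TPM in p16 WT CTL, 121 to 149 TPM in p16 KO CTL, 140 to 159 TPM in p16 WT RUN and 151 to 168 TPM in p16 KO RUN, an interaction of 0.28 (SE 0.10, unadjusted limma p 0.0111), and it alone of the 7 (14.3%, against 23.8% of all genes called) stayed under 0.05 under every setting and left-out library. Mknk1 was at 0.33 (SE 0.13), Nasp at 0.37 (SE 0.15), Pik3r3, a regulatory subunit of phosphoinositide kinases, at 0.25 (SE 0.10), Cc2d1b at 0.43 (SE 0.18) and Hyi at 0.78 (SE 0.35). D4Ertd617e, a transcript that overlaps Ebna1bp2 on the same strand, was at 1.71 (SE 0.62), at levels of 0.381 to 3.63 TPM. For the 4 members of smallest p for the average, the interaction was 0.19 (SE 0.29) for Hpdl, -0.26 (SE 0.17) for Ipp, 0.15 (SE 0.28) for C630043F03Rik and 0.45 (SE 0.24) for Tceanc2, none of them called. The count of 7 was 16 with the 3 libraries low in nuclear RNA set aside (7.25% of all genes) and 13 with quantile normalization (5.49%). It was 27 without p16 WT CTL 2 (13.7% of all genes), 22 without p16 WT RUN 11 (6%), 21 without p16 KO CTL 8 (7.85%), 19 without p16 KO CTL 5 (11.4%), 14 without p16 WT RUN 9 (5.28%) and 4 without p16 WT CTL 4 (4.31%).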

How the data were processed

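Per the paper's methods, total RNA of the dentate gyrus was made into libraries with an mRNA-Seq kit. The 16 libraries, each of 2 pooled mice, were sequenced as paired reads of 150 bases. Per the paper's methods, adapters were masked with Cutadapt 1.11, ends trimmed with ERNE, reads aligned to mm10 with STAR and abundances computed with StringTie. The TPM values, per the file headers, are abundances per gene made by the authors, and the authors' FPKM values, deposited beside them, served for 1 alternative. The coverage per base deposited by the authors gave the relative depth (0.621 to 1.95), and counting error per gene is not known.

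TPM of entries that share a name were summed. Each library was divided by its median ratio to the mean library over 13226 genes that reached 1 TPM everywhere. A minimum mean of 0.1 TPM left 17317 genes for limma 3.58.1 (R 4.3.3, empirical Bayes with a variance trend, Benjamini-Hochberg over all genes), fitted on log2(scaled TPM + 0.1), a scale that understates changes of low genes. The authors tested read counts, which were not used here. Pairwise sets used their 8 libraries, and the genotype average and interaction all 16. For single members a two-sided exact permutation test was added. TPM values are printed unscaled. The fits were tested on simulated data, and figures were drawn with matplotlib 3.10.9.

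Named members were those called in both genotype sets, the 10 closest to Cdkn2a, the 5 of smallest p in each pairwise set and the interaction, a list of well-known genes of the window and those at the limits. Others were named after their values were seen. The members and lists were chosen with earlier results of these data known. Alternatives were other filters (none, 1 TPM) and pseudocounts (0.01, 1), unscaled TPM, quantile normalization, FPKM, the highest entry per name, no variance trend, 1 fit for all libraries, an additive model, a nuclear RNA covariate, other windows (10 Mb, the chromosome) and leaving out each library. Setting aside 3 libraries low in nuclear RNA was chosen after seeing the data. Beyond the pooling of 2 mice per library, no source used here ties libraries to litters or sequencing runs. Of the members, 51 overlap another entry, 39 of them on the opposite strand. Some items are not reported here.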

Additional observations from a re-analysis of the deposited data

Results flagged for a closer look

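Among 236 groups of 4 libraries, 15 held a library far from the other 3 by Dixon's test, which chance alone gives in about 1 of 20 groups. Library p16 KO RUN 16 stood apart in Hsdl2 (32.7 TPM), Mtap (7.99 TPM), Ndc1 (19.3 TPM), Slc24a2 (168 TPM) and Tusc1 (13.5 TPM). Library p16 WT CTL 2, low in nuclear RNA, was lowest in Alg6 (6.61 TPM), C630043F03Rik (12.8 TPM), Focad (20.6 TPM), Hpdl (7.23 TPM) and Zcchc11 (15.4 TPM). Library p16 KO CTL 8 was highest in Agbl4 (11.1 TPM) and Rab3b (27.4 TPM), p16 KO CTL 5 in Hectd3 (41.7 TPM) and p16 WT RUN 12 in Alad (27.5 TPM), and p16 KO CTL 7 was lowest in Ror1 (0.939 TPM).

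The genotype difference varied between sedentary and running mice at an unadjusted limma p under 0.05, with none passing adjustment, for D4Ertd617e (1.71), Faah (0.28), Hyi (0.78), Mknk1 (0.33), Nasp (0.37) and Pik3r3 (0.25), as log2 differences of the running minus the sedentary genotype difference. In D4Ertd617e and Hyi this call was lost with the 3 libraries low in nuclear RNA set aside, and in Hyi, Mknk1 and Nasp with the nuclear RNA score in the model. Cc2d1b, also called for the interaction in the Results, was not among the members flagged here.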

How the results depend on the processing

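Counts of members at an unadjusted limma p under 0.05 moved as follows, and the cause was not tested. With the nuclear RNA score as covariate they were 16 in Set B (4.2% of all genes), 7 in Set E (4.21%), 18 in Set A (9.42%), 6 in Set C (5.2%) and 2 in both genotype sets. With the 3 libraries low in nuclear RNA set aside they were 17 in Set B (6.68%), 17 for the genotype average (6.48%), 16 for the interaction (7.25%), 13 in Set A (8.49%), 9 in Set C (5.88%) and 0 in both genotype sets. Quantile normalization gave 13 for the interaction (5.49%), and the fit of all 16 libraries gave 5 in Set C (5.64%) and 2 in both genotype sets. Within 10 Mb, 43 members gave 6 in Set B (14%), 1 in Set E (2.33%), 7 for the average (16.3%) and 0 for the interaction and in both sets. The 906 genes of chromosome 4 with a mean of 1 TPM or more gave 75 (8.28%), 30 (3.31%), 89 (9.82%), 47 (5.19%) and 2, beside 6.69%, 3.87%, 7.12%, 5.48% and 0.254% of all genes. Leaving out single libraries gave 13 to 51 in Set B, 1 to 21 in Set E, 23 to 51 for the average, 4 to 27 for the interaction, 24 to 58 in Set A (0 to 3 after adjustment), 2 to 9 in Set C and 0 to 11 in both sets. For the counts in both sets under altered fits or left-out libraries, no share over all genes is given, and nothing is read from them. Signs of the average log2 difference turned with TPM as deposited for Dab1 (-0.0208) and Jak1 (-0.0257), with quantile normalization for Jak1 (-0.012), with the nuclear RNA covariate for Ptprd (0.048), and with the 3 libraries set aside for Dab1 (-0.041), Ptprd (0.0556) and Slc24a2 (0.0237). Over left-out libraries it ran from -0.0123 to 0.0511 for Dab1, from -0.00628 to 0.0206 for Jak1, from -0.116 to 0.0188 for Jun, from -0.108 to 0.00572 for Mllt3, from -0.063 to 0.0213 for Ptprd and from -0.076 to 0.00782 for Slc24a2. No paired analysis was possible because no replicate number occurs in more than one group. Depth per gene is not known from these values, and what it limits was not tested.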
